A study of Mus musculus with 6 samples.

Results

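Immediate early genes are switched on within minutes of synaptic activity or growth factor stimulation, without new protein synthesis, through calcium and MAP kinase signals that reach the factors SRF and CREB at promoters already in place. Many of them encode transcription factors of the AP-1 and EGR families, which carry the signal to later genes. Others act at synapses (Arc, the neuronal pentraxin Nptx2) or switch the signal off again (the DUSP phosphatases). In cortex and hippocampus immediate early genes are widely read as marks of recently active neurons. The 34 genes described here were listed by name as members of that class, with earlier results of these data known, and all 34 were measured among the 18193 genes of the array, with the brightest probe set over all arrays standing for each gene.

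The tissue was the subiculum and retrosplenial cortex of C57BL/6 mice at postnatal day 1, from D6/Zbtb20S transgenic animals, in which the labels call these areas CA1-transformed, and from wildtype littermates. There were 3 Affymetrix arrays of D6/Zbtb20S tissue and 3 of wildtype tissue, each with RNA pooled from 7 animals. Zbtb20, the gene of the transgene, encodes a zinc finger repressor found in pyramidal neurons of the developing hippocampus. The labels do not name the cells in which the D6 element drives it. Whether pools of 1 genotype shared litters is not stated. The p-values therefore set the genotype difference against the spread between these pools only.

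In a limma fit over all genes 5 of the 34 had an adjusted p under 0.05 between D6/Zbtb20S and wildtype tissue. Fosl2, Ier5 and Dusp5 were lower and Egr2 and Crem were higher in D6/Zbtb20S tissue. The 5 genes make up 14.7% of the 34, against 7.71% of all genes called in either direction (4.06% higher, 3.64% lower). Since the list was drawn up with earlier results known, this share is a description only. Fosl2, Ier5 and Egr2 differed by at least 2-fold, 8.82% of the 34 against 1.45% of all genes. The median difference, D6/Zbtb20S minus wildtype, was -0.14 on the log2 scale over the 34 genes and -0.02 over all genes. A difference was negative for 23 of the 34 genes and positive for 11, against 9847 negative and 8346 positive of all 18193 genes. Arrays of the 2 genotypes did not overlap for 14 of the 34 genes, or 41.2%, against 26.1% of all genes.

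The genes most often used as activity marks were not among those called. Fos, Egr1, Arc and Npas4 differed by -0.14, -0.46, 0.06 and -0.09 on the log2 scale, with adjusted p from 0.158 to 0.867. For all 29 genes that were not called, the 95% interval on the brightest probe set lay inside a 2-fold change in either direction. The bounds lay between -0.85 and 0.69. On the second probe set of Nptx1, 1434877_at, the interval was -1.20 to -0.52 and so reached past a 2-fold change. RMA signal near the floor of the scale is compressed, and 10 of the 34 genes lay under the array median on all 6 arrays: Fosb, Fosl1, Junb, Atf3, Maff, Egr2, Npas4, Arc, Ptgs2 and Ier3. For those genes the measured differences may be smaller than the differences in RNA.

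**Figure D1:**
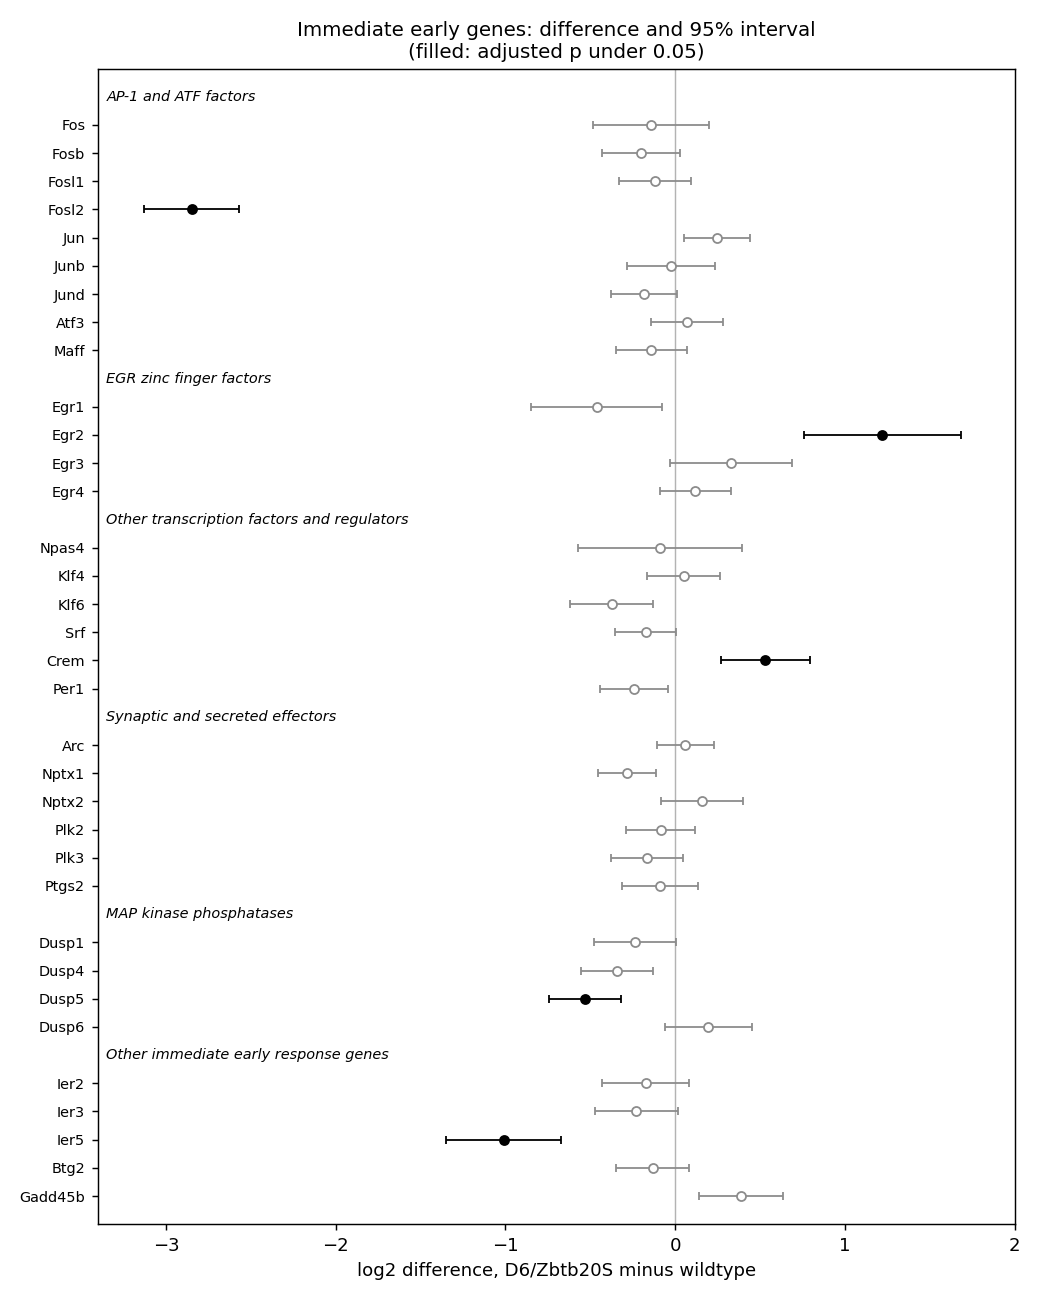
Difference in log2 signal, D6/Zbtb20S minus wildtype, for the 34 immediate early genes in groups by role. Points are differences and bars their 95% intervals from the limma fit (3 arrays per genotype). Filled points mark the 5 genes past an adjusted p of 0.05, Fosl2 at -2.85 and Egr2 at 1.22 lying farthest from 0.

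The arrays set some limits that hold throughout. Of 9 Zbtb20 probe sets 1 was called higher, 1422064_a_at, and the other 8 differed by -0.37 to 0.85 without passing. The called set read 8.88, 9.10 and 8.94 in D6/Zbtb20S replicates 1, 2 and 3, against 6.44, 5.84 and 7.64 in wildtype replicates 1, 2 and 3, with wildtype replicate 3 above the other wildtype arrays. Without that array 6 of the 34 genes passed, the 5 above and Dusp4. The 3'-minus-5' log2 signal of the actin control, a measure of RNA integrity, ran from 0.80 to 0.91 in D6/Zbtb20S arrays. In wildtype replicates 1, 2 and 3 it was 0.53, 0.88 and 1.31, with replicate 3 again the highest wildtype array. The same measure of the Gapdh control was -0.33, -0.03 and 0.30 in these wildtype arrays and -0.02 to -0.0018 in D6/Zbtb20S arrays. The dissected areas were marked by a list of 7 subiculum and retrosplenial genes, all 7 lower in D6/Zbtb20S tissue, in a list written with earlier results known. Of 9 glutamatergic neuron markers 3 were higher and 2 lower, and Slc17a6 was counted as lower both here and among the 7 genes. The summed linear signal of the 9 markers was 3207 to 3668 in D6/Zbtb20S arrays and 2562 to 3027 in wildtype arrays. The share called was 7.71% over all genes. Microglia markers had 4 of 12 higher (33.3%). Lower calls were made for 4 of 10 in the oligodendrocyte list (40%) and for 2 of 11 in the GABAergic neuron list (18.2%). In the endothelial and mural list 1 of 14 (7.14%) and in the astrocyte and radial glia list 1 of 12 (8.33%) was lower, shares close to that of all genes, and their summed signals overlapped between the genotypes. The summed linear signal of the microglial list was 820 to 949 in D6/Zbtb20S arrays and 629 to 667 in wildtype arrays, and that of the oligodendrocyte list 751 to 847 and 1024 to 1220 in the same order of genotypes. It was 963 to 1025 and 1178 to 1215 for the GABAergic list, 794 to 975 and 831 to 1040 for the endothelial and mural list, and 7804 to 7913 and 7617 to 8439 for the astrocyte and radial glia list, again D6/Zbtb20S first. No marker had a signal of 0, and Itgam (microglia), Pecam1 (endothelium), Mag and Mog (oligodendrocytes) lay under the array median on all arrays. The part of these cell types in the results was not tested, and in bulk tissue fewer cells of a type and less RNA per cell cannot be told apart.

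The promoters of 4 of the called genes are shown because known response elements of the pathway, such as those of SRF and CREB, lie before many immediate early genes. No promoter sequence was available for Crem, the other called gene. Each line gives the 250 bases before the annotated transcription start, 5′ to 3′ on the gene's strand, from RefSeq on GRCm38.p6, with motif matches in capitals. The windows are Fosl2 at chr5:32136222-32136471 (plus strand), Egr2 at chr10:67537316-67537565 (plus strand), Ier5 at chr1:155099637-155099886 (minus strand) and Dusp5 at chr19:53528895-53529144 (plus strand).
Fosl2: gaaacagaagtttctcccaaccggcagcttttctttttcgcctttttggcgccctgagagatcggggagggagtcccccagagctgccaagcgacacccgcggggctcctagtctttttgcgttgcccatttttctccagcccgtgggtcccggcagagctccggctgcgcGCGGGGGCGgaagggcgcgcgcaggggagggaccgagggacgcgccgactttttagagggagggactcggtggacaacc
Egr2: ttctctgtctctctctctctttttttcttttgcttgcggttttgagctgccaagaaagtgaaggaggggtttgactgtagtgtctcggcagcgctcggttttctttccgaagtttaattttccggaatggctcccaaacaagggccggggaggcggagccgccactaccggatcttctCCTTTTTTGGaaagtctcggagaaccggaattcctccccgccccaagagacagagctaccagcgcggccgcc
Ier5: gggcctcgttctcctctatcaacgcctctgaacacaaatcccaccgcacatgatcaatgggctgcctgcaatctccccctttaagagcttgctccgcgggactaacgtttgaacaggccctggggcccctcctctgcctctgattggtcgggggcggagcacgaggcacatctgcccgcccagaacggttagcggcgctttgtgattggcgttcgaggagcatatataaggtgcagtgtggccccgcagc
Dusp5: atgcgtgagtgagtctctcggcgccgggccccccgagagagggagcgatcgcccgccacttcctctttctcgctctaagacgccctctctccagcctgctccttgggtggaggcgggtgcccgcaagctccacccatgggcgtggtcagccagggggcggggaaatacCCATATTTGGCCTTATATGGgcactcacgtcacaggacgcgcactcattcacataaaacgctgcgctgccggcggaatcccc

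The motifs searched, on both strands, were the cAMP response element TGACGTCA, the AP-1 site TGANTCA, the EGR site GCGNGGGCG, the CArG box bound by SRF and the MEF2 element. Dusp5, which was lower, held 2 CArG boxes side by side, at 82 to 73 and 72 to 63 bases before its start. Egr2, which was higher, held 1 CArG box, at 72 to 63 bases before its start, so a match to the same element stood before a gene of each direction. The Fosl2 window held 1 EGR site, at 79 to 71 bases before the start, and the Ier5 window held none of these letters. Over the 25 members with a promoter in the table, 3 (12%) held a CArG box, with Srf beside these 2 genes, against 1.4% of 27025 promoters. An EGR site was found before 6 (24%) against 4.5%, a cAMP response element before 3 (12%; Btg2, Dusp1 and Plk2) against 1.57%, a MEF2 element before 2 (8%; Atf3 and Jun) against 2.98%, and an AP-1 site before 0 against 6.89%. The members without a promoter sequence, and so outside these shares, were Fosl1, Egr1, Egr3, Crem, Arc, Nptx1, Nptx2, Dusp4 and Ier2. A match is a description of the letters in the window and not evidence of binding.

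AP-1 is a dimer of a Fos-family and a Jun-family protein, and of its genes only Fosl2 was called. Fosl2, which encodes Fra-2, a Fos-family protein, read 5.45, 5.35 and 5.17 on the log2 scale in D6/Zbtb20S replicates 1, 2 and 3, against 8.03, 8.44 and 8.03 in wildtype replicates 1, 2 and 3. Every D6/Zbtb20S array lay more than 2 log2 units under every wildtype array. The difference was -2.85 ± 0.13 (SE, n = 3 and 3 arrays; limma adjusted p = 2.09e-06), a 7.20-fold lower signal. The gene's other probe set, 1422931_at, did not show it, with 4.56, 4.45 and 4.55 in D6/Zbtb20S and 4.65, 4.54 and 4.53 in wildtype arrays (difference -0.05, adjusted p = 0.796 over all probe sets). As the mean of both probe sets the difference was -1.45 and still passed (adjusted p = 9.86e-06).

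The other 8 genes of this group did not pass. Fos, the founding member, read 5.31, 5.74 and 5.18 in D6/Zbtb20S and 5.44, 5.79 and 5.43 in wildtype arrays. The genotypes overlapped, and replicate 2 was the highest array in each. Its difference was -0.14, with a 95% interval of -0.48 to 0.20 (adjusted p = 0.67). Fosb and Fosl1 differed by -0.20 and -0.12, and of the Jun genes Jun by 0.25, Junb by -0.03 and Jund by -0.18 (adjusted p from 0.131 to 0.935). Jun was higher in every D6/Zbtb20S array (6.34 to 6.59) than in any wildtype array (6.20 to 6.24) without passing the threshold, and its other probe set differed by 0.17. Atf3, a stress-induced CREB-family factor, and Maff, a small Maf protein that lacks an activation domain, differed by 0.07 and -0.14.

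The EGR genes encode zinc finger activators, and Egr2 was the one called. Egr2 is also called Krox20 and is known for its roles in hindbrain segments and myelinating Schwann cells. Egr2 read 3.81, 3.53 and 3.76 in D6/Zbtb20S arrays, against 2.90, 1.94 and 2.60 in wildtype arrays. All of these values lie under the array medians (3.83 to 3.97), and the wildtype arrays spread over nearly a log2 unit, yet the genotypes did not overlap. The difference was 1.22 ± 0.21 (SE; adjusted p = 0.00595), a 2.33-fold higher signal. A second probe set, 1427683_at, gave 3.74, 3.51 and 3.90 in D6/Zbtb20S and 2.16, 2.64 and 2.36 in wildtype arrays (difference 1.33, adjusted p = 0.0014 over all probe sets). Both Egr2 probe sets thus separated the genotypes in the same direction.

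Egr1, also called Zif268 and one of the most used marks of neuronal activity, ran the other way without passing. It read 6.10, 6.75 and 6.06 in D6/Zbtb20S replicates 1, 2 and 3, against 6.62, 6.91 and 6.77 in wildtype replicates 1, 2 and 3. D6/Zbtb20S replicate 2 lay within the wildtype range and the other 2 below it. The difference was -0.46 ± 0.17 (SE; adjusted p = 0.158), and without D6/Zbtb20S replicate 2 it was -0.69 and passed (adjusted p = 0.00783). Egr3 read 6.70, 6.67 and 6.82 in D6/Zbtb20S and 5.97, 6.57 and 6.66 in wildtype arrays (difference 0.33, adjusted p = 0.293), while its other probe set differed by 0.03. Egr4 differed by 0.12 (adjusted p = 0.536). Nab1 and Nab2, corepressors that bind EGR proteins, differed by -0.28 and 0.32 and did not pass either.

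Among the remaining transcriptional regulators Crem was called. Crem, a cAMP-responsive CREB relative whose short ICER product is itself an inducible repressor, read 4.56, 4.52 and 4.60 in D6/Zbtb20S arrays, against 4.26, 3.77 and 4.06 in wildtype arrays. The D6/Zbtb20S arrays lay close together above all wildtype arrays. The difference was 0.53 ± 0.12 (SE; adjusted p = 0.0233), a 1.45-fold higher signal. The call did not hold without D6/Zbtb20S replicate 1, 2 or 3 or without wildtype replicate 2, with adjusted p of 0.092, 0.0632, 0.0764 and 0.0708. It was also lost as the mean of its 4 probe sets (difference 0.22, adjusted p = 0.0837). The next probe set, 1418322_at, differed by 0.40 without passing over all probe sets (adjusted p = 0.0632), and the other 2 were dim, between 1.03 and 1.85 on all arrays.

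Npas4, a neuron-specific factor induced by calcium entry, was dim and spread widely, with 2.42, 2.25 and 2.88 in D6/Zbtb20S and 2.30, 2.42 and 3.10 in wildtype arrays. Its values overlapped fully and the difference was -0.09 (95% interval -0.57 to 0.40, adjusted p = 0.867). Srf, the factor that binds CArG boxes, differed by -0.17, Per1, a circadian clock gene also induced through CREB, by -0.24, and Klf4, a Krüppel-like factor, by 0.05. Klf6, a related factor, differed by -0.37 on its brightest probe set (adjusted p = 0.072; adjusted p = 0.0426 without wildtype replicate 1). Its 5 probe sets disagreed in sign, with 1418280_at at 0.41 and 1427742_a_at at 0.40 against -0.24 for 1447448_s_at and -0.38 for 1459718_x_at, and none passed over all probe sets.

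**Figure D2:**
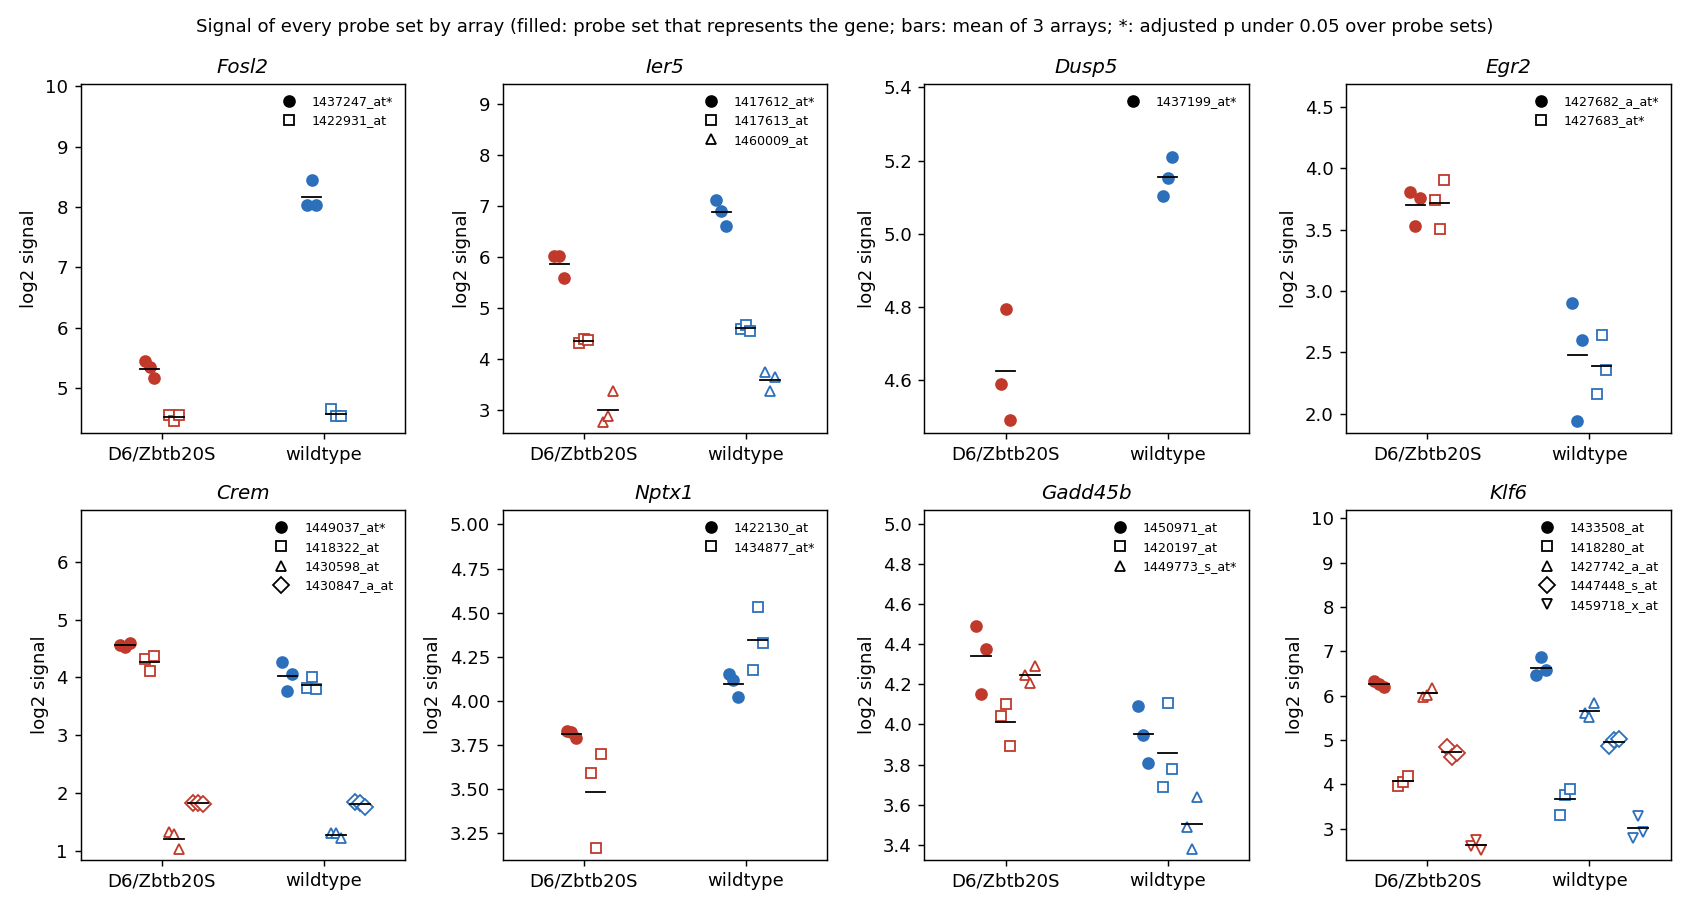
Log2 signal (y axis, scaled per gene) of every probe set of 8 genes, with D6/Zbtb20S arrays at the left (red) and wildtype arrays at the right (blue) of each panel. Symbols stand for probe sets, filled ones for the set that represents the gene, and bars for the mean of 3 arrays. Both Egr2 sets separate the genotypes, while 1 of 2 Fosl2 sets does, and the Klf6 sets run both ways.

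The MAP kinase phosphatases remove the activating phosphates from ERK, JNK and p38, and the gene called among them was Dusp5, which encodes a nuclear phosphatase of ERK. Dusp5 read 4.59, 4.80 and 4.49 in D6/Zbtb20S replicates 1, 2 and 3, against 5.10, 5.15 and 5.21 in wildtype replicates 1, 2 and 3. The wildtype arrays lay within 0.11 of each other and above every D6/Zbtb20S array. The difference was -0.53 ± 0.09 (SE; adjusted p = 0.0079), a 1.44-fold lower signal, read on 1 probe set. Dusp4, another nuclear phosphatase, read 6.38 to 6.53 in D6/Zbtb20S and 6.64 to 6.93 in wildtype arrays. The arrays did not overlap, but the difference of -0.34 missed the threshold (adjusted p = 0.0595; adjusted p = 0.0244 without wildtype replicate 3). Dusp1 differed by -0.24 (adjusted p = 0.251), and Dusp6, a cytoplasmic phosphatase of ERK, by 0.20 (adjusted p = 0.385).

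Of the 5 other early response genes Ier5 was called. Ier5, a nuclear protein known for its part in the heat shock factor response, read 6.01, 6.01 and 5.58 in D6/Zbtb20S arrays, against 7.12, 6.90 and 6.62 in wildtype arrays. No D6/Zbtb20S array reached the lowest wildtype array. The difference was -1.01 ± 0.15 (SE; adjusted p = 0.00284), a 2.01-fold lower signal. Its other 2 probe sets were lower too without passing over all probe sets, 1417613_at by -0.25 (adjusted p = 0.113) and 1460009_at by -0.59 (adjusted p = 0.0888). As the mean of the 3 probe sets Ier5 was at -0.62 and passed. Beside Ier5, 2 of 13 heat shock and stress genes (15.4%, against 7.71% of all genes) were higher, Hspa1b (0.69 ± 0.12 SE, adjusted p = 0.00731) and Hsph1 (0.54 ± 0.10 SE, adjusted p = 0.0107), and none was lower, and Hsph1 did not pass without wildtype replicate 2 (adjusted p = 0.0589). Whether handling of the tissue differed between the genotypes was not tested.

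Gadd45b, a growth arrest gene linked to activity-dependent DNA demethylation, read 4.49, 4.15 and 4.38 in D6/Zbtb20S and 4.09, 3.95 and 3.81 in wildtype arrays. These arrays did not overlap, but the difference of 0.39 missed the threshold (adjusted p = 0.0643; adjusted p = 0.042 without D6/Zbtb20S replicate 2). A dimmer probe set that can match more than 1 transcript, 1449773_s_at, passed over all probe sets, with 4.25, 4.21 and 4.29 in D6/Zbtb20S and 3.49, 3.38 and 3.64 in wildtype arrays (difference 0.75, adjusted p = 0.00223). The remaining probe set differed by 0.15. Ier2 and Ier3 differed by -0.17 and -0.23, and Btg2, an antiproliferative gene, by -0.13, none of them past the threshold.

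None of the 6 genes grouped here as synaptic and secreted effectors was called in the limma fit. Nptx1, 1 of them, had an unadjusted p under 0.05. Nptx1 encodes a neuronal pentraxin, a secreted protein that gathers AMPA receptors at excitatory synapses. It read 3.83, 3.82 and 3.79 in D6/Zbtb20S arrays, against 4.15, 4.12 and 4.02 in wildtype arrays. The arrays were tightly grouped and did not overlap, and the difference of -0.28 just missed the threshold (adjusted p = 0.0549). Its second probe set, 1434877_at, passed over all probe sets, with 3.59, 3.17 and 3.70 in D6/Zbtb20S and 4.18, 4.53 and 4.33 in wildtype arrays (difference -0.86, adjusted p = 0.0133). As the mean of both probe sets Nptx1 was at -0.57 and passed (adjusted p = 0.00345).

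Nptx2, the activity-induced pentraxin also called Narp, differed by 0.16 (adjusted p = 0.472). Arc, whose product takes part in AMPA receptor endocytosis, read 2.90, 2.82 and 2.91 in D6/Zbtb20S and 2.84, 2.78 and 2.82 in wildtype arrays. These values overlapped, lay under the array median and had a difference of 0.06 (95% interval -0.11 to 0.23). Plk2 and Plk3, polo-like kinases, differed by -0.09 and -0.17. Ptgs2, the inducible cyclooxygenase, was listed at 1.30 to 1.64 on all 6 arrays and differed by -0.09.

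Counted by probe set, the 34 genes had 58 probe sets, 17 genes having several. Of these 58, 8 (13.8%) passed over all 45037 probe sets, against 5.52% of all probe sets, 4 of them higher and 4 lower. They were the representing sets of Fosl2, Ier5, Dusp5, Egr2 and Crem, the second sets of Egr2 and Nptx1 and the _s_at set of Gadd45b. The count was 5 without D6/Zbtb20S replicate 1 and 5 without wildtype replicate 2.

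The genes also differed in how much they varied between arrays of 1 genotype. The standard deviation within genotypes was 0.38 for Npas4, 0.37 for Egr2, 0.29 for Egr1, 0.27 for Egr3, and 0.25 for Fos and for Ier5. These 6 of 34 genes lay above the 95th percentile of all genes, where 5% of all genes lie by definition. The median over the 34 genes was 0.14, against 0.11 over all genes, and no gene spread over 1 log2 unit or more within a genotype. Arc, at 0.04, was among the least variable. The high arrays were not the same for all: Egr1 and Fos stood highest in replicate 2 of both genotypes, and Npas4 in replicate 3 of both.

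**Figure D3:**
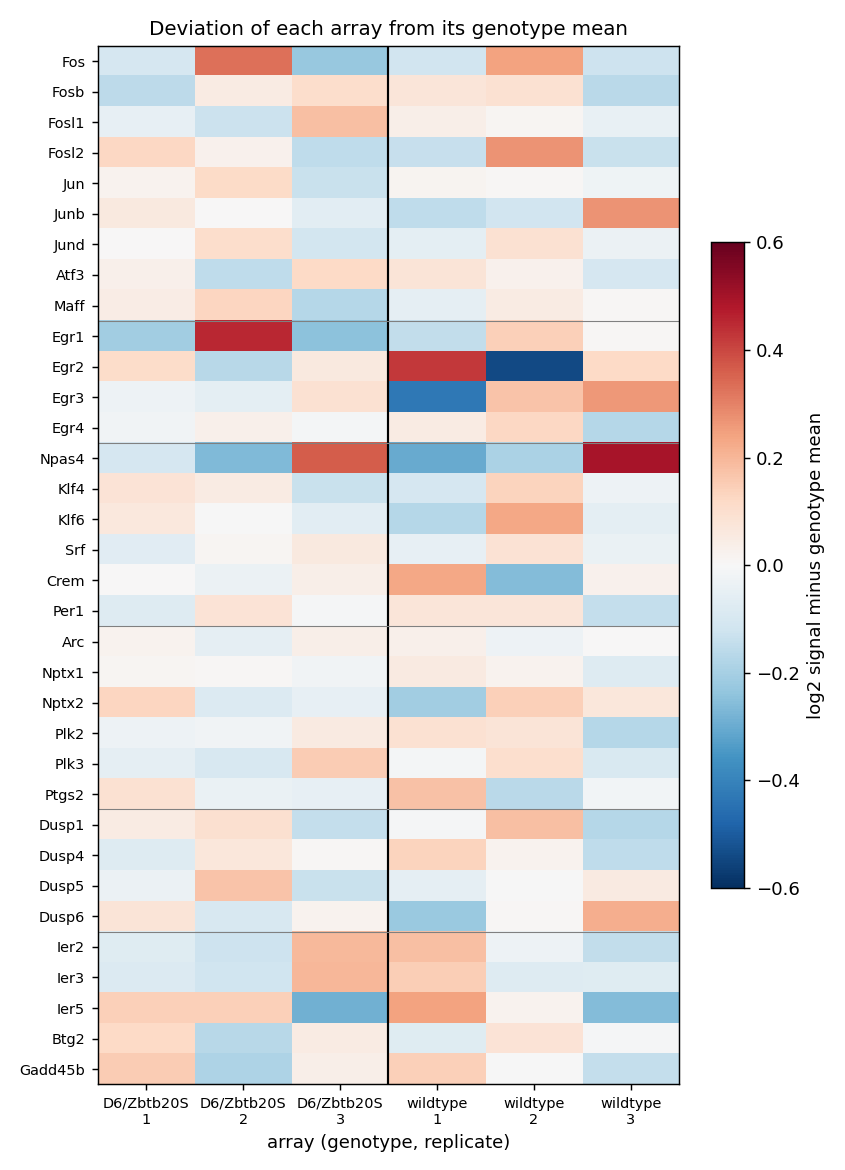
Deviation of each array's log2 signal from the mean of its genotype (colour, from -0.6 to 0.6) for the 34 genes in rows, with the 3 D6/Zbtb20S arrays left of the 3 wildtype arrays. Egr1 and Fos stand highest in replicate 2 of both genotypes, Npas4 in replicate 3 of both, and Egr2 varies most among the wildtype arrays.

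Other genes known to follow neuronal activity were called in both directions. Of 37 measured, 8 were higher and 8 lower, or 43.2%, against 7.71% of all genes, in a list written with earlier results of these data known, so that the share is a description only. The median difference of the 37 genes was 0.0022. The NR4A nuclear receptors, orphan receptors induced like Fos, went both ways: Nr4a2 was 10.1-fold lower (-3.34 ± 0.13 SE, adjusted p = 1.04e-06) and Nr4a1 1.42-fold lower (-0.50 ± 0.08), while Nr4a3 was 1.86-fold higher (0.89 ± 0.09). The Nr4a3 call rests on 1 of 3 probe sets and was lost as their mean (adjusted p = 0.0752), while Nr4a2 passed at -1.82 as the mean of its probe sets. Nr4a2 also belongs to the list of 7 subiculum and retrosplenial genes, all lower, so its change was counted in both lists.

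Among the peptide precursor genes of this list, Vgf and Scg2 were called, and Sst (-0.08, adjusted p = 0.672) and Crh (-0.48, adjusted p = 0.139) were not. Vgf, which is induced by neurotrophins, read 6.71, 6.69 and 6.60 in D6/Zbtb20S arrays, against 8.05, 8.24 and 8.12 in wildtype arrays (-1.47 ± 0.08 SE, adjusted p = 1.22e-05). Scg2, the secretogranin II gene, read 9.32, 9.28 and 9.54 in D6/Zbtb20S and 6.41, 6.15 and 7.24 in wildtype arrays (2.78 ± 0.23 SE, adjusted p = 7.82e-05). Neither gene overlapped between the genotypes. Rasgrp1, a Ras activator, was higher (1.61 ± 0.18 SE) on 1 of its 4 probe sets. Inhba, an activin subunit, was higher (0.75 ± 0.12 SE) on 1 of its 2 (0.44 and 0.39 as means of probe sets), and Ccn2, a matricellular protein gene, was lower (-0.75 ± 0.09 SE). Bdnf and Homer1, textbook activity-induced genes, differed by 0.08 and 0.26 and did not pass (adjusted p = 0.629 and 0.164).

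**Figure D4:**
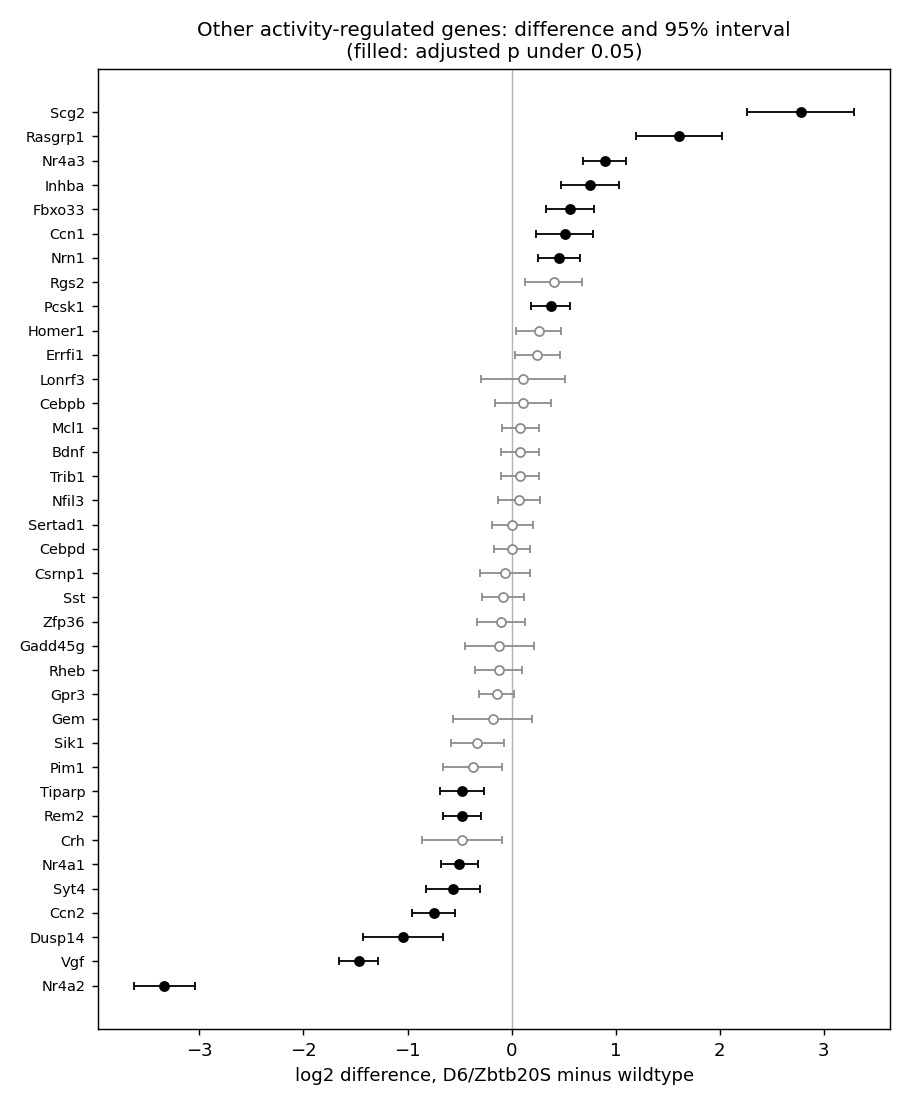
Difference in log2 signal, D6/Zbtb20S minus wildtype, for 37 other activity-regulated genes in order of the difference, with 95% intervals (3 arrays per genotype). Filled points mark the 16 genes past an adjusted p of 0.05, from Nr4a2 at -3.34 to Scg2 at 2.78.

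Of the genes that carry the signal to immediate early promoters, 4 of 32 (12.5%) were called, against 7.71% of all genes, with a median difference of -0.02, as over all genes. Mef2c, an activity-regulated MADS-box factor, was 4.53-fold lower (-2.18 ± 0.07 SE, adjusted p = 5.57e-07), and all 5 of its probe sets passed. Camk4, a nuclear kinase that phosphorylates CREB, was 3.17-fold lower (-1.66 ± 0.14 SE, adjusted p = 8.64e-05), on 1 of its 5 probe sets (-0.51 as their mean). Camk2a, a postsynaptic kinase, and Ppp3ca, a catalytic subunit of calcineurin, were higher by 0.65 ± 0.14 and 0.44 ± 0.08 (SE; adjusted p = 0.0221 and 0.0115), and Camk2a missed the threshold without D6/Zbtb20S replicate 1 or 3 or wildtype replicate 1 or 2 (adjusted p from 0.0716 to 0.0969), and likewise when its probe sets were averaged (0.21). Camk2a was also counted among the glutamatergic neuron markers that were higher. Creb1 and Elk1, which bind cAMP response elements and serum response elements, differed by 0.31 and 0.24 and did not pass (adjusted p = 0.138 and 0.3).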

How the data were processed

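The deposited table held log2 signals of 45101 probe sets on 6 arrays, made by the authors; per the submitters' processing notes the tools were RMA and limma (versions and order not given in the sources used here). RMA subtracts background, brings the arrays to a shared scale and combines the probes of each set. From their range the values were read as log2. Array medians were 3.83 to 3.97, so the last scaling and any centring stay unknown, and the number of arrays limits precision. Leaving out 64 control probe sets, 45037 were tested; 34945 had 1 symbol in the platform annotation, 932 several and 9160 none. Of the named sets, 34741 matched the GRCm38.p6 gene table and 0 symbols changed.

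The 18193 genes were each read on their brightest probe set. The genotypes were compared with limma 3.58.1 under R 4.3.3 (lmFit, eBayes, 1 coefficient per genotype). P-values were adjusted by Benjamini-Hochberg across all genes, and across all probe sets where that is stated; ± is the moderated standard error. The smallest exact permutation p for 3 against 3 is 0.1. The fit was tested on simulated data with 200 changed genes. It recovered 50% of changes of 0.5 log2 units and 84% of changes of 1 log2 unit. Of its calls 4.29% were false. Figures used matplotlib 3.10.9 in Python 3.11.15.

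The members and lists were chosen with earlier results of these data known. Members past the threshold on any probe set, or differing by at least 0.5, are given array by array, with Fos, Egr1, Egr3, Arc and Npas4 added after their values were seen. From the other lists up to 8 called genes are named, with Bdnf, Homer1, Sst, Crh, Creb1, Elk1, Nab1 and Nab2 added. Alternatives were leaving out each array, a replicate block, array weights, equal medians, quantile normalization, an ordinary linear model, an intensity trend, bright probe sets only (above the array median on 3 or more arrays), averaged probe sets, removal of _s_at and _x_at sets and thresholds of 0.01 and 0.1. For promoters, the most upstream start near the gene's median annotated start was used.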

Additional observations from a re-analysis of the deposited data

How the results depend on the processing

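Over 500 combinations of a member gene and an alternative, 467 kept direction and side of the threshold; Fosl2 did so in all 15. Calls were lost in 9 and gained in 15, and the sign turned in 9, all of genes that did not pass: Junb was 0.0054 without D6/Zbtb20S replicate 3, 0.11 without wildtype replicate 3 (from -0.10 over the fits that left out an array) and 0.050 with array weights, Npas4 0.045 without D6/Zbtb20S replicate 2 and 0.16 without wildtype replicate 3 (from -0.27), Klf4 -0.00059 without wildtype replicate 1 (up to 0.12) and -0.0014 with array weights, Ptgs2 0.012 with array weights and Srf 0.048 without _s_at and _x_at probe sets. With the ordinary linear model 1 member passed (Fosl2; Egr2, Dusp5, Ier5 and Crem had adjusted p of 0.173, 0.111, 0.13 and 0.196), 1 member probe set, 4 other activity-regulated, 1 upstream, 0 heat shock genes (3 at an unadjusted p under 0.05; limma called 2) and 267 genes in all. With array weights the counts were 11 members, 17 member probe sets, 8 upstream genes and 2707 genes. At an adjusted p under 0.1, 9 members and 13 member probe sets passed, and at 0.01, 4 member probe sets, 2 upstream genes, 1 heat shock gene and 693 genes. With the mean of probe sets 7 upstream genes passed. Bright probe sets only left 24 members, without Egr2, of which 6 passed. Leaving out 1 array gave 4 to 6 members, 5 to 9 member probe sets, 12 to 18 other activity-regulated genes, 3 to 5 upstream genes, 1 to 3 heat shock genes and 777 to 1538 genes (777 without wildtype replicate 2, 837 without D6/Zbtb20S replicate 1). The cause of these changes was not tested.

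With the replicate block the same 5 members and 1343 genes passed. Deviations of same-numbered arrays correlated at -0.22, 0.18 and -0.0081 for replicates 1, 2 and 3. Only D6/Zbtb20S replicate 2 correlated best with the wildtype array of its own number. With deviations taken from means of 3 arrays, these values cannot decide whether the numbers pair the samples.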

Other observations

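Replicate 2 was the highest array of both genotypes for 6 of the 34 genes (Fos, Jund, Maff, Egr1, Egr4 and Dusp1), against 7.63% of all genes; replicate 1 was so for 4 genes (7.97% of all genes) and replicate 3 for 2, Egr3 and Npas4 (16.2% of all genes). These counts were made after the values of Fos and Egr1 were seen.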
